A study of Homo sapiens with 8 samples.

Results

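The 8 DNA repair genes OGG1, POLE, FEN1, ATM, BRCA1, BRCA2, LIG1 and XRCC1 were examined for binding of the leukaemia fusion proteins AML1-ETO and ETO2-GLIS2. Every peak was taken whose summit, the position of highest signal, lay in the hg19 body of a gene or within 20 kb of it. This gave 189 of the 235023 peaks in the 4 lists of the series, and each of the 8 genes had at least 1. AML1-ETO contributed 49 of 70833 at 12 h and 78 of 105769 at 48 h. ETO2-GLIS2 contributed 30 of 28325 and 32 of 30096.

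The cells were U937, an established human monocytic leukaemia line, carrying an HA-tagged fusion protein that doxycycline switches on. U937-AE expressed AML1-ETO and U937-EG expressed ETO2-GLIS2, each line being a selected clone, and all samples had doxycycline at 5 µg/ml, with no uninduced sample. ChIP used anti-HA beads, and the 8 libraries were 1 ChIP library and 1 input for each protein at 12 h and at 48 h. The sample names and a treatment label gave these times, whereas the treatment protocol named 48 h for every sample. With 1 ChIP library per protein and time there was no replicate, so no difference below carries a test, and the protein, the clone and the library cannot be told apart. The lists hold no expression values, so the cell type could not be checked by its markers. They hold no read numbers, and the effect of depth on them was not tested. By the read totals in the study's supplement both AML1-ETO ChIP libraries were deeper than those of ETO2-GLIS2, and the ETO2-GLIS2 library at 48 h was the shallowest, although its list is longer than that at 12 h. Strength is therefore given as the rank of a peak in its own list by −log10 q, and as that rank in percent of the list, where smaller is stronger. Weak peaks often had tied values, and their ranks are approximate.

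DNA repair genes keep the genome intact through separate routes. Base excision repair removes damaged bases and closes the gap, homologous recombination rebuilds broken strands from a sister copy, and kinases such as ATM signal the damage. AML1-ETO carries the Runt domain, the part of RUNX1 that binds DNA, fused to the corepressor partner ETO, and ETO2-GLIS2 joins the related ETO2 to the zinc fingers of GLIS2. AML1-ETO has been reported to lower the expression of DNA repair genes, but expression was not analysed here and a peak does not show regulation.

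The sequences below lay at the summits on which the results turn. They are written 5′ to 3′ on the plus strand of GRCh37, the assembly of hg19. Capitals mark the Runt motif (TGTGGT or TGCGGT), the short GLIS motif (TGGGGGG) or the E-box CAGCTG, read on either strand. Where the window of 100 bp to either side of a summit overlapped an exon, only 30 bases around a match are shown. In such a stretch only that match is in capitals, so the E-box that overlaps the NBR1 match is not marked. The first 4 are strong sites near a gene start or in the OGG1 gene record, and the last 2 are intronic sites bound by both proteins or by AML1-ETO only.
OGG1 start, chr3:9791632-9791661: ttccggtggtgcTGTGGTctgcccctggag
OGG1 gene record, 30 kb past the start, chr3:9821569-9821598: caccaagcataCCCCCCAcaaaccttacca
POLE and PXMP2 starts, chr12:133264075-133264104: cggggaaaagtgTGTGGTaggcgcgcgcgg
NBR1 start beside BRCA1, chr17:41323321-41323350: taaggaagcagcTGCGGTtacctaggggtg
XRCC1 intron 2, chr19:44067039-44067239: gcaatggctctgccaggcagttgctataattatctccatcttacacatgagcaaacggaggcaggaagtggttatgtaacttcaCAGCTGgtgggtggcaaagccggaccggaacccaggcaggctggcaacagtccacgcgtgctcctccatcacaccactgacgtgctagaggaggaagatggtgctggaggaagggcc
ATM intron 5, chr11:108107761-108107961: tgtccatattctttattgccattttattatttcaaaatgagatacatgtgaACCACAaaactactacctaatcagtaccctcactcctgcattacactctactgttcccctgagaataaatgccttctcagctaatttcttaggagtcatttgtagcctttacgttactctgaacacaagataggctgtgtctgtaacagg

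Both proteins had peaks at most of the genes, as they had at most protein-coding genes. AML1-ETO had a peak at 7 of the 8 genes at 12 h and at 8 at 48 h, against 77.9% and 80.6% of the 19881 protein-coding genes. ETO2-GLIS2 had a peak at 7 genes at each time, against 66.8% and 66.4%. The missing genes were LIG1 in the AML1-ETO list at 12 h and ATM in both ETO2-GLIS2 lists. A start peak was defined as a summit within 1 kb of any annotated start of the gene. AML1-ETO had one at 6 genes at 12 h and 8 at 48 h, against 54.5% and 60.2% of coding genes. ETO2-GLIS2 had one at 6 genes at 12 h and 4 at 48 h, against 43.2% and 46.2%. At 48 h, 4 of the genes had a start peak of both proteins and 4 of AML1-ETO only, against 44.3% and 15.9% of coding genes. At 12 h, 5 had one of both, 1 of AML1-ETO only, 1 of ETO2-GLIS2 only and 1 of neither. Over coding genes these classes held 40.3%, 14.2%, 2.90% and 42.6% at 12 h. With 3 kb around a start, ETO2-GLIS2 had a start peak at 6 genes at 48 h, so the split depends on the window. The canonical start itself lay inside an AML1-ETO peak at 4 genes at 12 h and 7 at 48 h, against 35.7% and 48.3% of coding genes. It lay inside an ETO2-GLIS2 peak at 4 genes at each time, against 25.4% and 30.6%. The counts over 8 genes are small and were not tested against these shares.

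**Figure D1:**
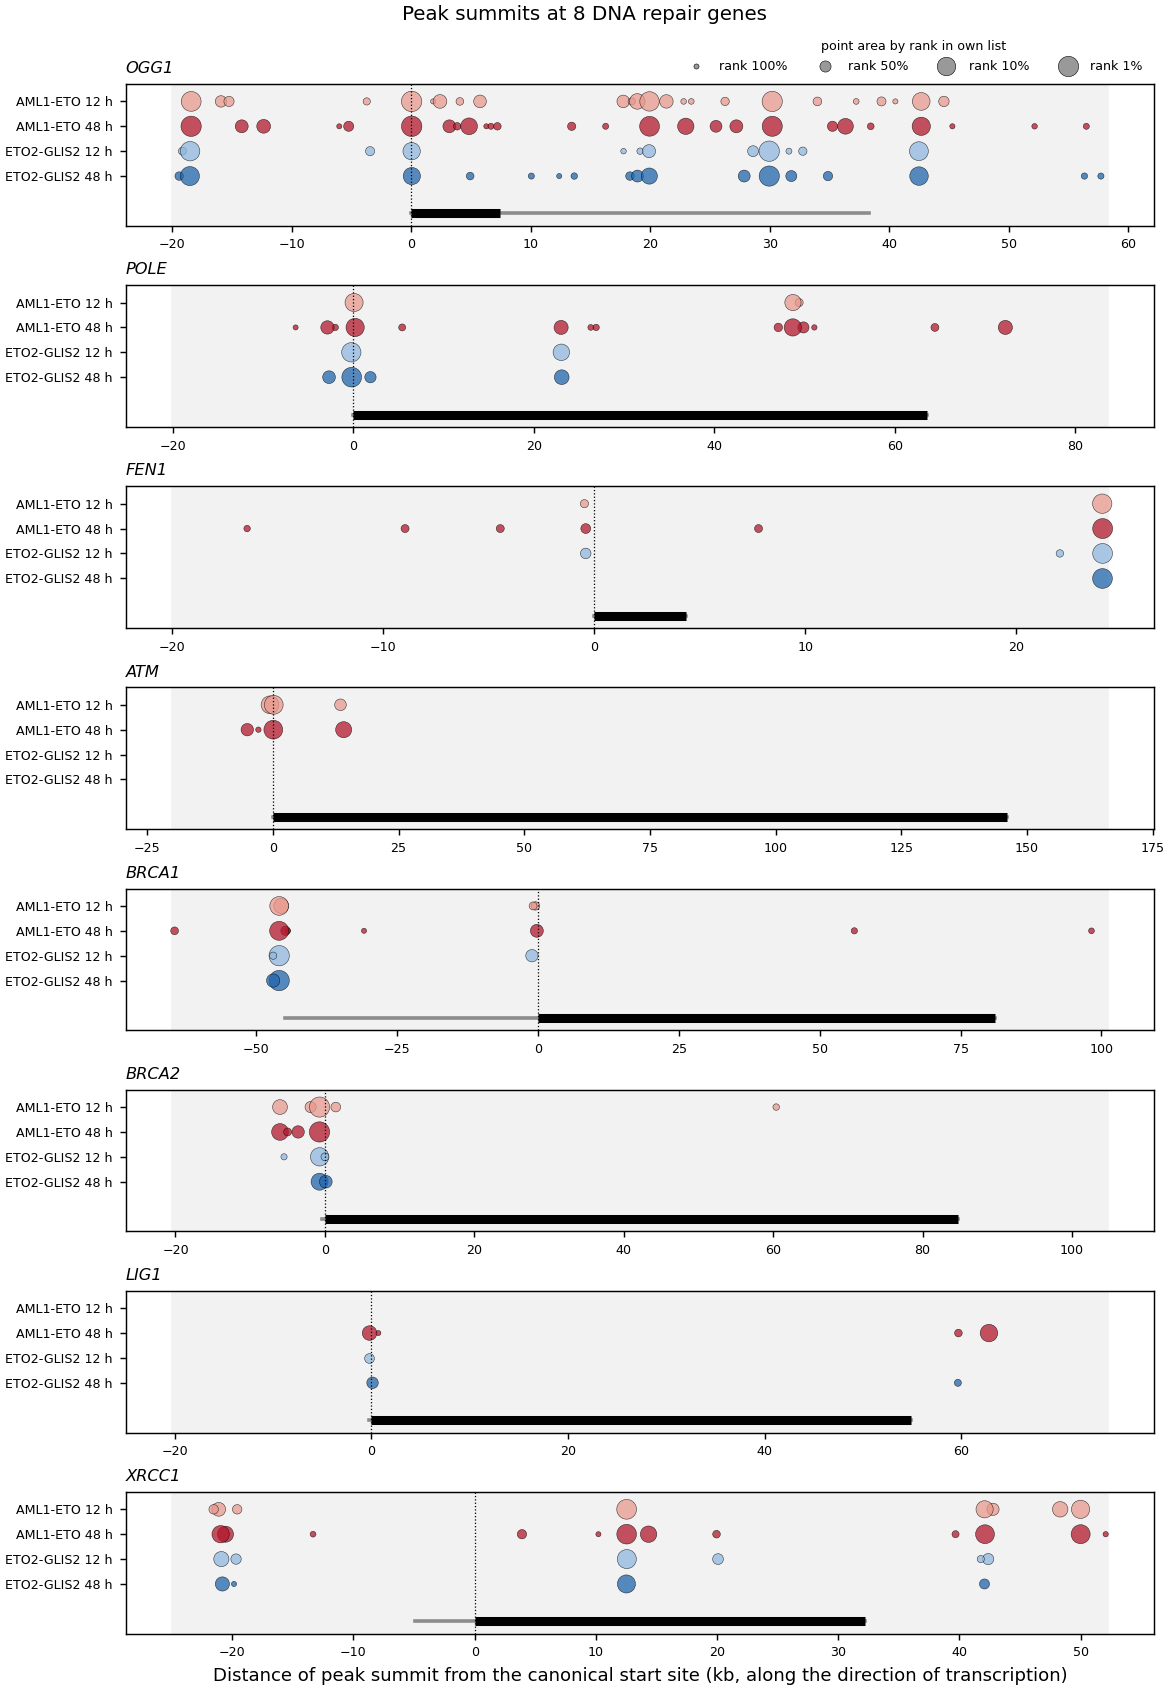
Summits of all 189 peaks, by distance from the canonical start of each gene (x axis, kb, along the direction of transcription), in 1 row per list. Larger points have a stronger rank in their own list, black bars are the canonical transcript, grey lines the full gene record, and the shaded band the searched window. OGG1 has the most points in each of the 4 rows, and ATM has none in the ETO2-GLIS2 rows.

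OGG1, the glycosylase that cuts the oxidised base 8-oxoguanine out of DNA, held more peaks than the other 7 genes in each list. AML1-ETO had 24 peaks there at 12 h and 26 at 48 h, whereas ETO2-GLIS2 had 12 and then 17. As many peaks or more were found at 1.80%, 4.13%, 1.51% and 0.936% of coding genes, in the same order of lists. The AML1-ETO peaks at 48 h covered 45.1% of the 78.3 kb searched and the ETO2-GLIS2 peaks 13.9%. Over the 8 genes the median number for AML1-ETO was 3.5 at 12 h and 7 at 48 h, against 3 and 5 over coding genes. For ETO2-GLIS2 it was 3 and then 2, against 1 and 1. Genes differ in length, and these counts were not scaled by it. The OGG1 counts used its full gene record of 38.3 kb, which reaches beyond the canonical transcript. The share of the window covered was not computed for other coding genes.

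**Figure D2:**
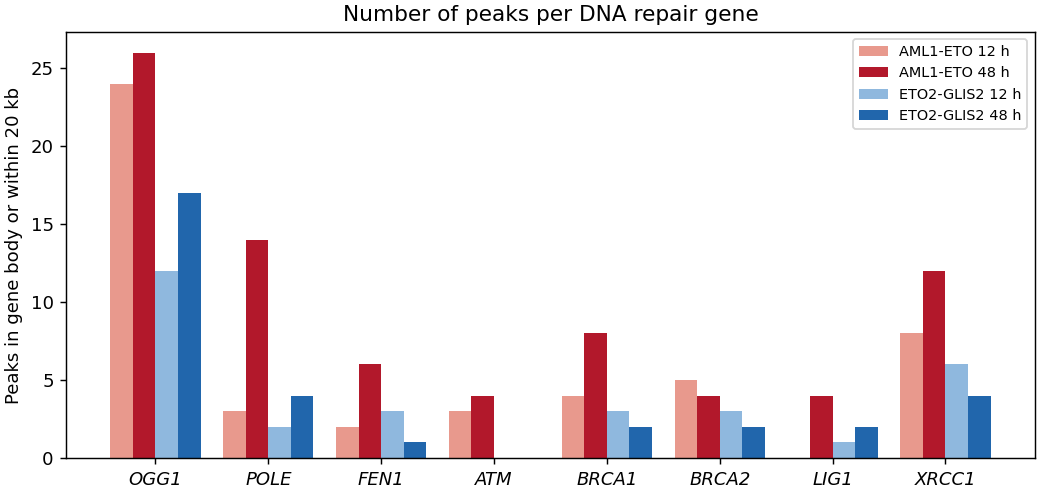
Number of peaks in the gene body or within 20 kb (y axis) for each gene, with 1 bar per list. OGG1 has 12 to 26 peaks in each list, and XRCC1 is the only other gene with at least 4 in every list.

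The OGG1 start ranked far higher for AML1-ETO than for ETO2-GLIS2. The AML1-ETO peak was number 352 of its list at 12 h (0.497%) and number 145 at 48 h (0.137%). The ETO2-GLIS2 peak was number 4581 at 12 h (16.2%) and number 5063 at 48 h (16.8%). The 4 summits lay between 21 and 39 bp past the start, in the 5′ untranslated exon 1. The AML1-ETO peaks were 3270 and 5750 bp wide and the ETO2-GLIS2 peaks 1337 and 1156 bp. A Runt match, printed above, was centred 10.5 to 28.5 bp before the summits, and an E-box was centred 3.5 to 21.5 bp past them.

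A second region about 30 kb past the OGG1 start had the opposite order. It lay in the long gene record of OGG1 but outside the canonical transcript. ETO2-GLIS2 had its number 107 peak of the list there at 12 h (0.378%) and its number 360 at 48 h (1.2%). AML1-ETO had number 839 at 12 h (1.18%) and number 2003 at 48 h (1.89%). The peaks of the 2 proteins overlapped, but their summits were 254 bp apart at 12 h and 251 bp at 48 h, while each protein kept its summit within 3 bp and 6 bp between the times. The ETO2-GLIS2 summits lay 3 and 9 bp from the centre of the short GLIS match printed above and 79.5 and 73.5 bp from that of a Runt match, and no GLIS or Runt match was found within 100 bp of the AML1-ETO summits.

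Several other OGG1 peaks belonged to neighbouring starts. At the start of BRPF1, 18.4 kb before OGG1, AML1-ETO ranked at 3.36% and 0.783% and ETO2-GLIS2 at 5.21% and 7.22%. At the start of CAMK1, 19.9 kb past the OGG1 start, the ranks were 5.25% and 3.20% against 39.2% and 22.6%. At the start of TADA3 they were 14.3% and 11.4% against 8.34% and 9.97%. Merging overlapping peaks of the 4 lists gave 37 OGG1 regions, of which 27 were found in 1 list only and 5 in all 4. The same shares over the whole lists were not computed.

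XRCC1, the scaffold of single-strand break repair, had no peak of either protein within 1 kb of its canonical start. Its strongest site lay in intron 2, 12521 to 12553 bp past that start, and was present in all 4 lists. AML1-ETO ranked 2537 at 12 h (3.58%) and 4258 at 48 h (4.03%), and ETO2-GLIS2 ranked 2051 (7.24%) and 3678 (12.2%). AML1-ETO was thus stronger in percent of its list and ETO2-GLIS2 in the plain rank, so the lists gave no order. The AML1-ETO summits were 2 bp apart between the times. The window printed above held an E-box and no Runt match. AML1-ETO alone had a further peak in intron 2 at 48 h, 229 bp from a start of a shorter transcript, at 21.0%. The other stronger XRCC1 peaks lay at starts of the neighbours ZNF575, ETHE1, IRGQ, ZNF576 and SRRM5.

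FEN1, the flap endonuclease of long-patch repair and Okazaki fragment processing, and LIG1, the ligase that seals the last nick, had weak start peaks. At FEN1 the summits were 403 to 467 bp before the start, nearer to the start of TMEM258, and ranked 67.6% and 57.4% for AML1-ETO and 53.2% for ETO2-GLIS2 at 12 h. ETO2-GLIS2 had no start peak there at 48 h. The strong peak in the FEN1 window was at the start of FADS1, 24.1 kb past the FEN1 start, where AML1-ETO ranked 5.59% at 12 h and 2.61% at 48 h, and ETO2-GLIS2 ranked 3.46% and 3.59%. At LIG1, AML1-ETO had no peak at 12 h and ranked 30.8% at 48 h, and ETO2-GLIS2 ranked 57.8% and 47.9%. These start peaks had fold enrichments of 3.29 to 5.48 over the local background.

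POLE encodes the catalytic subunit of DNA polymerase epsilon, which copies the leading strand. Its start stands head to head with that of PXMP2, a peroxisomal membrane protein gene. ETO2-GLIS2 ranked higher at this pair of starts, with number 1705 at 12 h (6.02%) and number 1199 at 48 h (3.98%). AML1-ETO had number 8652 (12.2%) and number 12142 (11.5%). The summits of the 2 proteins fell on opposite sides of the POLE start. ETO2-GLIS2 peaked 199 and 159 bp before it, where the printed Runt match was centred 37.5 and 2.5 bp from the summits, and AML1-ETO peaked in intron 1, 105 and 224 bp past the start, with no Runt match within 100 bp. Inside the gene, a site in intron 22 ranked 20.7% and 30.3% for ETO2-GLIS2 and 33.5% for AML1-ETO at 48 h, with no AML1-ETO peak at 12 h. A site in intron 40 was bound by AML1-ETO only, at 22.1% and 16.6%.

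ATM, the kinase that signals double-strand breaks, was the only gene without any ETO2-GLIS2 peak at either time. The nearest one lay 129250 bp from the gene at 12 h and 129223 bp at 48 h. AML1-ETO had a peak over the start in both lists, at rank 5903 of 70833 (8.33%) and 8946 of 105769 (8.46%). The summits were 152 and 69 bp past the start. A second AML1-ETO peak at 12 h lay 585 bp before it, nearer to the start of NPAT, at 14%. In intron 5, AML1-ETO ranked 47.1% at 12 h and 22.9% at 48 h. These 2 peaks overlapped, but only the 48 h summit, 633 bp further into the gene, had the Runt match printed above, at 46.5 bp.

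BRCA1, which directs broken ends to homologous recombination, had weak peaks at its canonical start. AML1-ETO ranked 66.1% at 12 h, with the summit 438 bp before the start, and 39.8% at 48 h, with the summit 193 bp before it. ETO2-GLIS2 had a peak 1064 bp before it at 12 h (42.9%) and none at 48 h. The strongest peaks of the window lay 45.9 kb before the canonical start, at the start of NBR1, a selective autophagy receptor gene. They were counted because the BRCA1 gene record extends beyond its canonical transcript almost to NBR1. ETO2-GLIS2 had number 234 of its list there at 12 h (0.826%) and number 173 at 48 h (0.575%). AML1-ETO had number 6293 (8.88%) and number 8005 (7.57%). The summits of the 2 proteins were within 2 bp at each time, and the printed Runt match was centred 32.5 to 36.5 bp from them. It overlapped an E-box by 2 letters.

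BRCA2, a mediator of homologous recombination, had its strongest site 701 to 721 bp before the start in all 4 lists. AML1-ETO ranked 1082 at 12 h (1.53%) and 949 at 48 h (0.897%), and its peaks reached over the start. ETO2-GLIS2 ranked 3041 (10.7%) and 5467 (18.2%), in peaks of 543 and 528 bp that ended before it. ETO2-GLIS2 had separate weak peaks with summits 9 and 120 bp past the start, at 69.2% and 40.9%. Of 10 pieces of 30 bases around this BRCA2 site, 3 occurred more than once in GRCh37, up to 378 times, and the part of repeated sequence in these peaks was not tested. The 10 such pieces of the XRCC1 window and the 10 of the ATM window each occurred once, as did the 4 shorter stretches. The search found exact copies only. The window of the ETO2-GLIS2 peak 1064 bp before the BRCA1 start at 12 h holds a stretch closely similar to that printed for NBR1. The part of such near copies in these peaks was not tested.

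**Figure D3:**
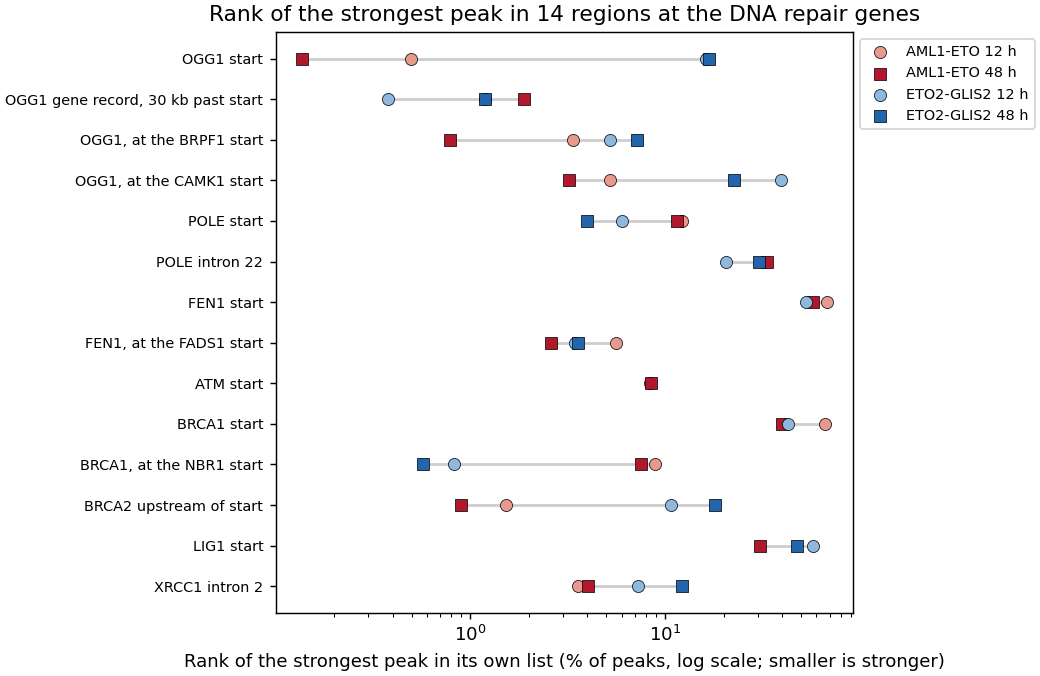
Rank of the strongest peak of each list in 14 regions, in percent of the list (x axis, log scale, smaller is stronger), with red for AML1-ETO, blue for ETO2-GLIS2, circles for 12 h and squares for 48 h. AML1-ETO lies left of ETO2-GLIS2 at the OGG1 start and upstream of BRCA2, and ETO2-GLIS2 lies left at the POLE and NBR1 starts.

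Most ETO2-GLIS2 peaks shared ground with AML1-ETO, but fewer had their summits close together. Overlap of at least 1 bp at the same time was found for 27 of 30 ETO2-GLIS2 peaks at 12 h (90%, 95% interval 73.5 to 97.9%), against 74.5% of that whole list. At 48 h it was 26 of 32 (81.2%, 63.6 to 92.8%), against 83.4%. Of the AML1-ETO peaks, 21 of 49 at 12 h (42.9%, 28.8 to 57.8%) and 20 of 78 at 48 h (25.6%, 16.4 to 36.8%) were shared, against 26.2% and 17.8%. A summit of the other protein within 200 bp was found for 11 of 30 and 15 of 32 ETO2-GLIS2 peaks (36.7% and 46.9%), against 41.6% and 39% of the lists. For AML1-ETO it was 11 of 49 and 15 of 78 (22.4% and 19.2%), against 16.6% and 11.1%. These exact Clopper-Pearson intervals cover counting error only, and neighbouring peaks are not independent.

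Between the times, 42 of the 49 early AML1-ETO peaks (85.7%, 72.8 to 94.1%) met a peak of the 48 h list, against 73.9% of the list. Of the 78 peaks at 48 h, 24 (30.8%, 20.8 to 42.2%) met a peak of the 12 h list, against 36.8%. For ETO2-GLIS2 the shares were 19 of 30 (63.3%, 43.9 to 80.1%) and 18 of 32 (56.2%, 37.7 to 73.6%), against 60.6% and 54.6%. Merging overlapping peaks gave 90 regions, of which 60 were found in 1 list, 11 in 2, 6 in 3 and 13 in all 4. The whole lists were not merged in this way, so whether these counts differ from the usual share is not known. In the 13 regions found in all 4 lists, the median distance between the summits of the 2 proteins was 92 bp at 12 h (0 to 304) and 43 bp at 48 h (2 to 702). Between the times it was 6 bp for AML1-ETO (2 to 963) and 18 bp for ETO2-GLIS2 (1 to 306).

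The typical peak at these genes was of middle strength. The median AML1-ETO rank was 44.1% at 12 h and 58.6% at 48 h, and the median ETO2-GLIS2 rank was 51.5% and 45.6%. Among the genes with a start peak, the best one ranked in the top 10% of its list at 3 genes for AML1-ETO at each time (OGG1, ATM and BRCA2) and at 1 gene for ETO2-GLIS2 (POLE). Over all coding genes with a start peak, the median best rank was 17.2% and 10.1% for AML1-ETO. For ETO2-GLIS2 it was 32.3% and 28.1%. The share of coding genes in the top 10% was not counted, so these gene counts do not mark the repair genes as unusual. The Runt motif was found within 100 bp of 12 of 49 and 13 of 78 AML1-ETO summits (24.5% and 16.7%), against 26.7% and 25.0% of all summits. For ETO2-GLIS2 it was 8 of 30 and 8 of 32 (26.7% and 25.0%), against 23.3% and 21.9%. Without the OGG1 peaks the ETO2-GLIS2 shares were 3 of 18 (16.7%) at 12 h and 5 of 15 (33.3%) at 48 h, on opposite sides of those of the lists. The matches at the named sites describe those sites only. The short GLIS motif lay within 100 bp of 7.75% of all ETO2-GLIS2 summits at 12 h and 3.84% of all AML1-ETO summits at 48 h, and the E-box within 100 bp of 16.3% and 13.8%. The ETS core GGAA was present at 40 of 49 and 66 of 78 AML1-ETO summits, against 83.6% and 83.1% of all summits.

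Other DNA repair genes had a start peak more often than the average coding gene, in all 4 lists. Of 127 further genes in 8 repair lists, 109 had an AML1-ETO start peak at 12 h (85.8%) and 117 at 48 h (92.1%), beside the 54.5% and 60.2% of all coding genes given above. ETO2-GLIS2 had one at 81 (63.8%) and 93 (73.2%), beside 43.2% and 46.2%. At 48 h, 91 genes had a start peak of both proteins, 26 of AML1-ETO only, 2 of ETO2-GLIS2 only and 8 of neither. Over all coding genes these classes held 44.3%, 15.9%, 1.88% and 37.9%. Whether these genes differ from coding genes of like expression was not tested.

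**Figure D4:**
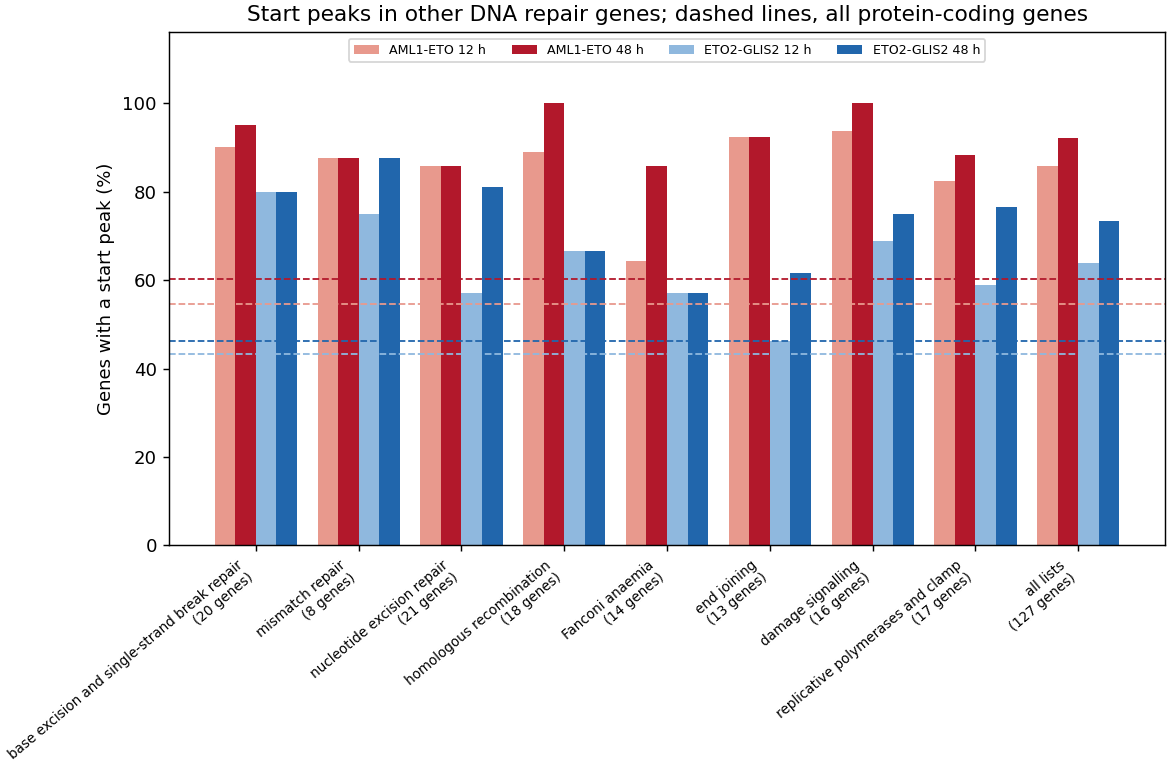
Percent of genes with a start peak (y axis) in 8 lists of DNA repair genes and over all 127, with 1 bar per list of peaks, and dashed lines for all protein-coding genes in the same colours. The AML1-ETO bars lie above their dashed lines in every list, from 64.3% for the Fanconi anaemia genes at 12 h to 100% for homologous recombination and damage signalling at 48 h.

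At 12 h the widest gap between the proteins was in end joining, where AML1-ETO had a start peak at 12 of 13 genes and ETO2-GLIS2 at 6, and at 48 h these counts were 12 and 8. In base excision and single-strand break repair, AML1-ETO had 18 and 19 of 20 genes and ETO2-GLIS2 16 and 16. In homologous recombination, the list with the widest gap at 48 h, AML1-ETO had 16 and 18 of 18 genes and ETO2-GLIS2 12 and 12. The best-ranked start in a list was the same for both proteins at 48 h in 3 of the 8 lists. PARP1, the sensor of strand breaks, ranked 0.265% and 0.174% in the AML1-ETO lists, against 1.03% and 1.22% in those of ETO2-GLIS2. NBN, a subunit of the break-sensing MRN complex, ranked 0.503% and 0.263% against 1.43% and 1.90%. FANCE, of the Fanconi core complex, ranked 5.70% and 1.97% against 3.98% and 3.16%. In plain rank at 48 h, ETO2-GLIS2 was the stronger at FANCE (951 against 2081), so the lists gave no order there.

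In the other lists the best-ranked genes differed. For AML1-ETO at 48 h they were PMS1 (0.234%) in mismatch repair, UVSSA (0.647%) in nucleotide excision repair, DCLRE1C (0.357%) in end joining, RAD9A (0.166%) in damage signalling and POLD3 (1.56%) among the replicative polymerases. For ETO2-GLIS2 at 48 h these genes ranked 30.0%, 24.4%, 32.5%, 34.8% and 39.1%. They were picked by their AML1-ETO rank, so weaker ranks for ETO2-GLIS2 can follow from the choice itself. The same holds in the other direction for the genes picked by their ETO2-GLIS2 rank. The ETO2-GLIS2 leaders at 48 h were MSH6 (3.24%), XPC (4.60%), POLM (5.08%), RAD17 (7%) and POLD4 (7.82%), where AML1-ETO ranked 0.971%, 5.89%, 11.6%, 11.7% and 2.57%. In plain rank, ETO2-GLIS2 was the stronger at MSH6 (974 against 1027) and POLD4 (2353 against 2719), so the lists gave no order at these 2 genes. PMS1 and MSH6 are mismatch repair proteins, UVSSA acts in transcription-coupled repair and XPC recognises distorted DNA. DCLRE1C is the nuclease Artemis and POLM is DNA polymerase mu. RAD9A belongs to a checkpoint clamp that RAD17 helps to load, and POLD3 and POLD4 are subunits of DNA polymerase delta.

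The 20 kb edge of the window decided whether some peaks were counted. Just inside it lay the FADS1 start, 19749 to 19769 bp from FEN1 in the 4 lists, and just outside an AML1-ETO peak 20053 bp from FEN1 at 12 h (22%) and 20060 bp at 48 h (14%).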

How the data were processed

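Peak calls of 4 ChIP-seq libraries of doxycycline-induced U937 cells were analysed, and no peak file of the 4 inputs was analysed here. As the labels and the paper's methods state, the authors mapped reads to hg19 with Bowtie2 2.2.9, used SAMtools 1.7, and called peaks per library with MACS2 2.1.1.20160309. Its settings and any removal of duplicates are not given in the sources used here. The deposited fold enrichment is a linear ratio of ChIP signal over local background at the summit. The deposited −log10 p-value and −log10 q-value come from the same caller, and the deposited score column was not used for ranking. All of these values grow with depth and precipitation quality, so they were used only within a list.

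Within each list, peaks of chromosomes 1 to 22, X and Y took ranks by −log10 q, with ties broken by p, fold enrichment and position. GENCODE release 44, in its GRCh37 mapping, gave genes, starts and canonical transcripts. Peaks were joined to genes by summit, and overlap meant at least 1 bp. Motifs were counted on both strands within 100 bp of each summit. Shares have exact 95% Clopper-Pearson intervals (scipy 1.17.1, Python 3.11.15). The overlap code was checked against bedtools and the motif code on simulated windows, with 0 differences in 28325 peaks and 0 errors in 2000 windows. The member genes, the repair lists and the peaks described were chosen with earlier results of these data known, and no p-value was computed. All 8 genes are described. In each repair list the gene with the best-ranked start peak in each 48 h list is named, and neighbouring genes are named where their start lay nearer to a peak. The 14 regions plotted were chosen after their values were seen. Alternatives were a stricter −log10 q, equal list lengths, other windows, other overlap rules, ranking by fold and a narrower motif window. Leaving out OGG1 was added after the data were seen.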

Additional observations from a re-analysis of the deposited data

Results flagged for a closer look

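At 3 genes the number of peaks moved in opposite directions from 12 h to 48 h in the 2 lines, with 1 library per time, so the difference was not tested. At FEN1 the AML1-ETO peaks changed by +4 and the ETO2-GLIS2 peaks by -2. At BRCA1 they changed by +4 and -1, and at XRCC1 by +4 and -2. The whole AML1-ETO list was longer at 48 h (105769 peaks against 70833), and the ETO2-GLIS2 list was longer as well (30096 against 28325). The share of all coding genes with such opposite changes was not counted, so these 3 genes are not marked as unusual. In merged regions with an AML1-ETO peak at 48 h and none at 12 h, the peaks at FEN1 ranked 68.8% to 80.0%. Those at BRCA1 ranked 59.8% to 98.6%, and those at XRCC1 21.0% to 98.8%. The part of list length in these changes was not tested.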

How the results depend on the processing

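No paired analysis was possible because each protein and time has 1 ChIP library. Of 156 repeated values, 109 stayed within 1.5 times the reported count or inside the 95% interval of the reported share or median rank, which is wide for these numbers, and the other 47 are given here. Peak numbers are in the order AML1-ETO 12 h, AML1-ETO 48 h, ETO2-GLIS2 12 h, ETO2-GLIS2 48 h. A −log10 q of at least 5 left 26, 32, 19 and 21 peaks, and at least 10 left 17, 22, 11 and 12. Gene bodies alone held 26, 39, 14 and 17, and a 50 kb window 78, 137, 52 and 63. With every list limited to its strongest 28325 peaks, AML1-ETO kept 22 and 23. At −log10 q of at least 10, start peaks were left at 5 genes for AML1-ETO at 48 h and 3 for ETO2-GLIS2 at 12 h, and equal list lengths left 5 for AML1-ETO at 48 h. The share of AML1-ETO peaks that overlapped ETO2-GLIS2 became 68.2% at 12 h and 56.5% at 48 h with equal lengths, 46.9% and 50% at 48 h with −log10 q of at least 5 and 10, 20.4% and 12.8% where 50% of the peak had to overlap, and 22.4% at 12 h with summits within 200 bp. The share of ETO2-GLIS2 peaks that overlapped AML1-ETO became 68.4% at 12 h and 95.2% at 48 h with −log10 q of at least 5, 70% at 12 h with equal lengths, 36.7% and 46.9% with summits within 200 bp, and 93.3% at 48 h without OGG1. Recurrence of AML1-ETO peaks of 12 h became 96.2% and 100% with −log10 q of at least 5 and 10, 95.5% with equal lengths, 94.7% by canonical transcript, 36.7% with summits within 200 bp and 96% without OGG1. Recurrence of those of 48 h became 56.2%, 63.6% and 69.6% with the same filters and lengths, and 20.5% where 50% had to overlap. For ETO2-GLIS2, −log10 q of at least 10 gave 100% at 12 h and 91.7% at 48 h. With 50 bp to either side of the summit, the Runt motif was at 8.16% of AML1-ETO summits at 12 h, against 16.0% of all summits. Counts of weak peaks and shares of short overlaps therefore depend on the thresholds, and the causes were not tested. Without OGG1 the median AML1-ETO rank at 12 h was 29.7%. An absent peak can also reflect limited depth, which was not tested.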
